A study of Mus musculus with 2 samples.

Results

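The 10 genes described here encode the TGF-beta ligands (Tgfb1, Tgfb2 and Tgfb3) and their receptors (Tgfbr1, Tgfbr2 and Tgfbr3). Others encode a protein that stores the latent ligand (Ltbp1), a relative of it (Ltbp2) and a protein that can activate the ligand (Thbs1). Tgfbi encodes a matrix protein named for its induction by the pathway. These genes were taken by name, all 10 among the 19465 genes in the count matrices of both sections. Their levels were followed over tumor, edge and neural spots. The samples were 2 sections of mouse cerebellum bearing tumors from HP breast cancer organoids, labelled HP-F1 +cre (section 1) and HP-B6 +cre (section 2). Both carry the genotype label HP and the label of no treatment, so the study holds 1 condition and no tumor-free control, and regions were compared within sections. According to the study's methods, HP organoids were grown from mammary tumors of mice with mutant HER2 and PIK3CA, the cells were labelled with luciferase and selected as clones, and dissociated organoids were injected stereotactically into the cerebellum of immunocompetent mice, so the tumor cells did not pass through the circulation. Donors and recipients were C57BL/6J mice. Both sections carry the cell line label B6-HP, whereas the title of section 1 names HP-F1, and the sources used here do not say what HP-F1 stands for or which clone gave each section. The sections, 5 µm thick and fixed in formalin, were profiled with Visium CytAssist, in which probe pairs ligated on a transcript are counted as unique molecular identifiers (UMIs) in spots on a regular array. A spot can hold several cells of different types.

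TGF-beta is secreted in a latent form, tied to its own propeptide and, through that, to a latent TGF-beta binding protein in the matrix. Integrins, proteases and thrombospondin 1 can release it. The free ligand binds the type II receptor, which recruits and phosphorylates the type I receptor, and SMAD proteins then carry the signal to the nucleus. In breast cancer the pathway is known both for growth arrest and for epithelial-mesenchymal transition, and in the brain microglia depend on it for their identity.

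Tumor and neural tissue were told apart by the share of UMIs from 31 neuronal, oligodendrocyte and astrocyte genes, none of which is a member. The edge took in all spots within 2 spot spacings (about 100 µm each) of the opposite tissue, split into a tumor side and a neural side. Section 1 had 671 tumor, 111 tumor-side edge, 119 neural-side edge and 2410 neural spots, and section 2 had 689, 185, 193 and 2875. Summed by section and region, the UMIs gave 8 libraries of 2323038 to 36408361 UMIs. A connected group of low-neural spots counted as tumor only with at least 50 spots and a median UMI count at least 2 times that of high-neural spots. More UMIs per spot in tumor were thus partly a condition of the label. The medians were 56888 and 42252 in tumor and 7664.5 and 9805 in neural tissue. Levels are therefore given as counts per 1000000 UMIs of the library (CPM), scaled by TMM factors of 0.881 to 1.20 unless stated otherwise, and fewer cells of a type cannot be told apart from less RNA per cell.

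**Figure D1:**
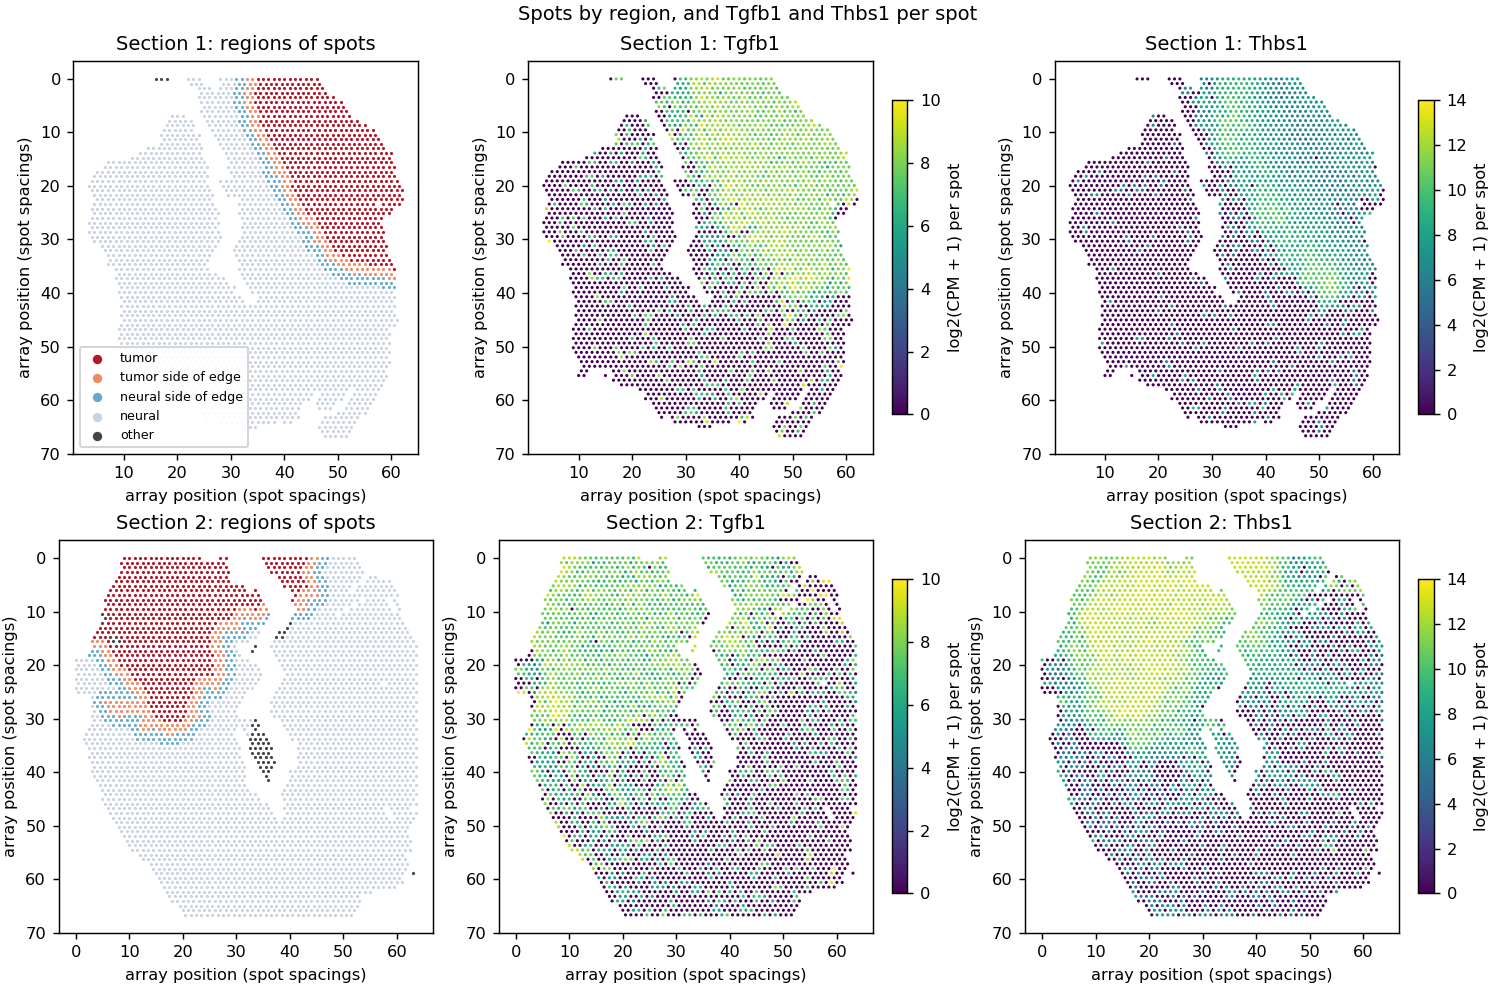
Spots of section 1 (top) and section 2 (bottom) at their array positions in spot spacings, colored by region (left) and by log2(CPM + 1) per spot of Tgfb1 (middle) and Thbs1 (right). Tgfb1 was high throughout both tumors, whereas Thbs1 was highest along the border of the tumor in section 1 and throughout the tumor in section 2.

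The tumors of the 2 sections stood apart in their cell type markers. In section 2 the list of 13 epithelial genes summed to 12825 CPM in tumor and 393 CPM in neural tissue (CPM without TMM scaling, as for all marker lists). In section 1 it summed to 59.1 CPM in tumor and 57.4 CPM in neural tissue, although all 13 genes had UMIs, and Epcam stood at 6.59 CPM in tumor against 1825 CPM in section 2. In sum, the epithelial genes thus did not set the tumor of section 1 apart from its neural tissue. Single genes were higher in that tumor, with Krt8 at 23.4 against 4.94 CPM and Epcam at 6.59 against 4.08 CPM in neural tissue. The other listed genes together were lower there. Between the sections, the list of 11 fibroblast genes went the other way, with 55282 CPM in the tumor of section 1 and 453 CPM in that of section 2. Macrophage genes (14 listed) were highest at the edge in both sections, summing to 20080 and 21474 CPM on its neural side, against 12316 and 3944 CPM in tumor and 3315 and 3580 CPM in neural tissue. The levels of the members by region are therefore given for each section. Many fold changes, among them those of most genes other than the members, are given for the fit over both sections alone. The part of these cell types in the differences was not tested.

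Of the 10 members, 7 have an entry in the RefSeq table of start sites for GRCm38.p6 (mm10). The sequence before the start is shown for Tgfb1, Ltbp1 and Tgfbi, a ligand, a latency protein and a response gene that were all higher in tumor and at the edge than in neural tissue. For Ltbp1 the window before the start ends at chromosome 17 position 75005528, inside the gene. Only its 201 bases outside the gene are shown, without those next to the start. The stretches lie on the plus strand at chr7:25686752-25687001, chr17:75005279-75005479 and chr13:56609336-56609585, and run up to the outermost base of each gene, at chromosome 7 position 25687002, chromosome 17 position 75005480 and chromosome 13 position 56609586. Capitals mark the SMAD box (CAGAC, or GTCTG on the other strand) and the cyclic AMP response element (TGACGTCA), which was added to the search after the Ltbp1 sequence had been read.
Tgfb1: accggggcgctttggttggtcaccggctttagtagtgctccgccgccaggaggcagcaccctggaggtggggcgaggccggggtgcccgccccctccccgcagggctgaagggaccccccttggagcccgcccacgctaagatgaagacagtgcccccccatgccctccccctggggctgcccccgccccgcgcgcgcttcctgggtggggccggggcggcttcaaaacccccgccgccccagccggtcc
Ltbp1: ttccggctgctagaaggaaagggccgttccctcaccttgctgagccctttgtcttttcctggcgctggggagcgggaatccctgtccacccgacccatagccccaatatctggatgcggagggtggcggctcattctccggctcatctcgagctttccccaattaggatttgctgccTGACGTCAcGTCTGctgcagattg
Tgfbi: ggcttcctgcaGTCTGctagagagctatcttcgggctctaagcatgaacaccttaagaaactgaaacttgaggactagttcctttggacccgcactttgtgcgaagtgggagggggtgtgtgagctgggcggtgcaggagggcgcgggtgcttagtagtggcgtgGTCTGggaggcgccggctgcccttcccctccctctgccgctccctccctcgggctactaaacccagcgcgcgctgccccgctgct

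The Tgfb1 stretch held neither motif and was 75.2% G and C. Tgfbi held 2 SMAD boxes, and Ltbp1 held 1 after its TGACGTCA, with 1 base between them. In the 250 bases before all 32851 starts of the table, a SMAD box was present in 42.2% (7 of the 9 windows of the members) and TGACGTCA in 1.5%, so a SMAD box is common in such windows. The AP-1 motif TGANTCA, present in 6.7% of the windows, was in none of the 9 windows of the 7 members. Ltbp1 and Tgfbr1 each have a further start inside the gene, and the counts do not tell which start was used.

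The first comparison asked which members differed between tumor and neural tissue. With edgeR's quasi-likelihood test and Benjamini-Hochberg adjustment over all 19118 genes that passed the filter on low counts, among them all 10 members, 8 of 10 were higher in tumor at an adjusted p below 0.05 and none was lower. Of all genes tested, 35.8% were called, 17.6% as higher in tumor and 18.1% as lower. The median log2 fold change was 2.56 over the members and -0.13 over all genes. For 9 members both tumor levels lay above both neural levels, which held for 27.7% of all genes, and the exception was Tgfbr3.

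**Figure D2:**
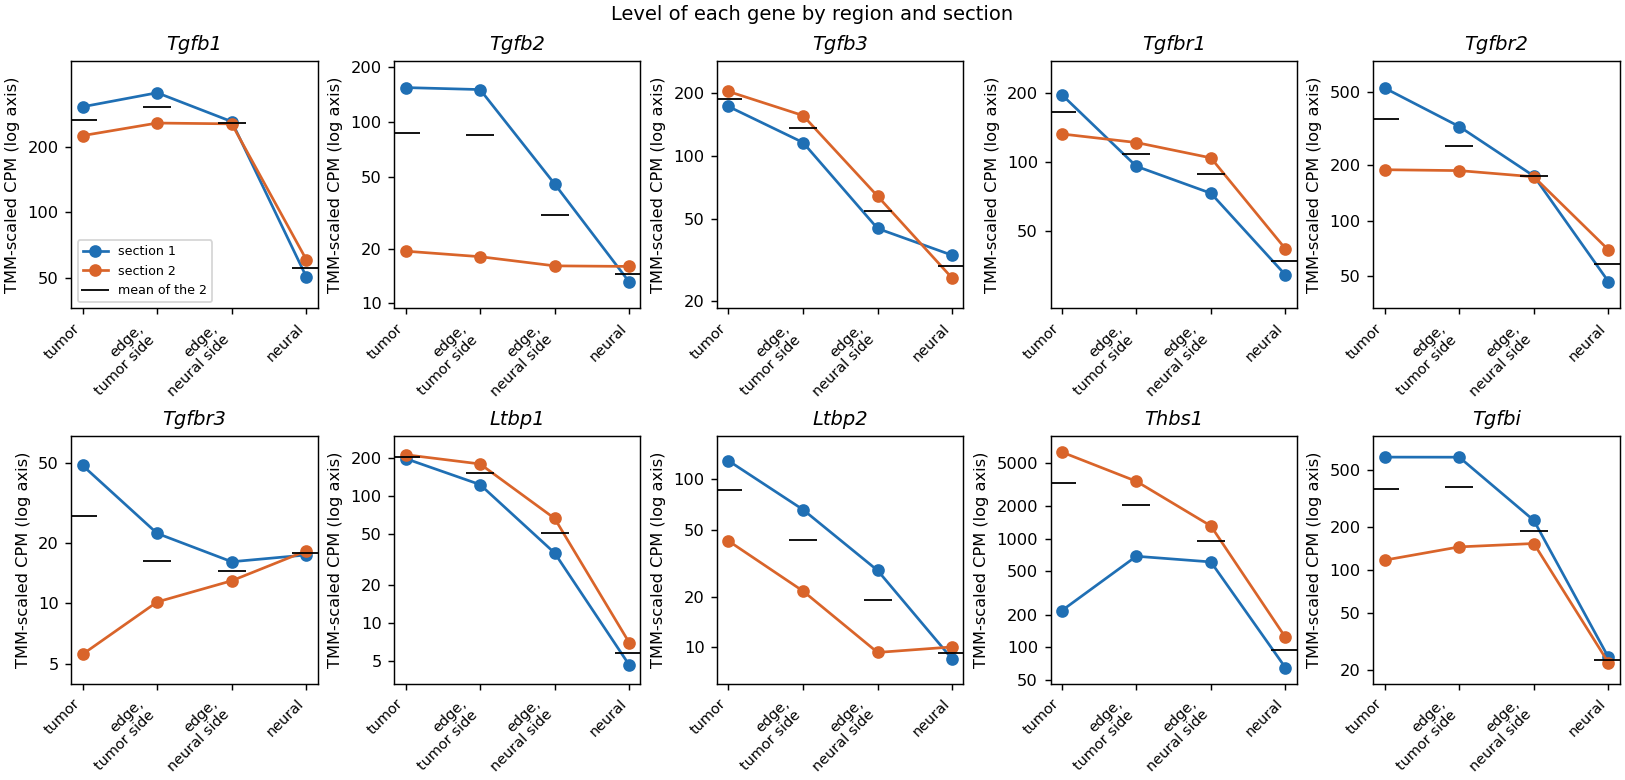
TMM-scaled CPM (log axis) of each member in tumor, both sides of the edge and neural tissue, with a point per section and a dash for the mean of the 2. Neural levels of the sections lay within 1.90-fold of each other, whereas tumor levels of Tgfb2, Tgfbr3, Thbs1 and Tgfbi lay far apart.

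Among the ligands, Tgfb1 stood at 307 CPM in the tumor of section 1 and 226 CPM in that of section 2. It was as high at the edge, with 356 and 258 CPM on the tumor side and 262 and 256 CPM on the neural side, and stood at 50.5 and 60.6 CPM in neural tissue. Tumor and edge levels overlapped, and all of them lay above the neural levels. Tumor exceeded neural tissue by a log2 fold change of 2.24 ± 0.25 (SE, n = 2 sections; edgeR adjusted p = 0.00156). Between tumor and edge it was -0.09 ± 0.20 (edgeR adjusted p = 0.862). Here and below, ± gives the SE of the edgeR fit over all 8 libraries, not the spread between the 2 sections. For tumor against neural tissue, Tgfb1 gave 2.59 in section 1 and 1.89 in section 2.

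Tgfb3 was ordered from tumor down to neural tissue in both sections. Its levels were 173 and 204 CPM in tumor, 116 and 157 CPM on the tumor side of the edge, 44.8 and 64.1 CPM on the neural side, and 33.3 and 25.8 CPM in neural tissue, with no overlap between neighbouring regions. Tumor against neural tissue gave a log2 fold change of 2.65 ± 0.26 (edgeR adjusted p = 0.00114). Between tumor and edge it was 1.14 ± 0.21 (edgeR adjusted p = 0.0525).

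Tgfb2 was high in the tumor of 1 section alone. Section 1 held 155 CPM in tumor, 151 CPM on the tumor side of the edge, 45.5 CPM on the neural side and 13.1 CPM in neural tissue. Section 2 held 19.4, 18.1, 16.1 and 16.0 CPM in the same order, a nearly level line in CPM. In UMIs per spot it held 0.721, 0.557, 0.295 and 0.186, falling with the UMIs of all genes per spot. The log2 fold change between tumor and neural tissue was 3.51 in section 1 and 0.27 in section 2, and 1.67 ± 0.86 in the fit over both (edgeR adjusted p = 0.176).

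Of the receptors, the type II receptor Tgfbr2 stood at 523 CPM in the tumor of section 1 and 189 CPM in that of section 2. On the tumor side of the edge it stood at 323 and 187 CPM, on the neural side at 174 and 173 CPM, and in neural tissue at 46.7 and 69.4 CPM. It thus declined toward the neural tissue in section 1 and was level through tumor and edge in section 2. Tumor exceeded neural tissue by a log2 fold change of 2.47 ± 0.51 (edgeR adjusted p = 0.0142).

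The type I receptor Tgfbr1 followed a similar course. It was measured at 198 and 133 CPM in tumor, 96.2 and 122 CPM on the tumor side of the edge, 73.4 and 105 CPM on the neural side, and 32.3 and 42.0 CPM in neural tissue. The sides of the edge overlapped, and tumor lay above both. Tumor exceeded neural tissue by a log2 fold change of 2.18 ± 0.30 (edgeR adjusted p = 0.00325).

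Tgfbr3, or betaglycan, a coreceptor that presents ligand to the signaling receptors, went in opposite directions. In section 1 it was highest in tumor, with 48.8 CPM against 17.5 CPM in neural tissue. In section 2 it was lowest in tumor, with 5.58 CPM (143 UMIs) against 18.3 CPM in neural tissue. At the edge it stood at 22.4 and 10.2 CPM on the tumor side and 16.1 and 13.0 CPM on the neural side, the section 1 value of the neural side lying just below neural tissue. The fit over both sections gave a log2 fold change of 0.11 ± 0.78 (edgeR adjusted p = 0.919), with 1.46 in section 1 and -1.63 in section 2.

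Ltbp1, which anchors latent TGF-beta in the matrix, had the largest log2 fold change of the members between tumor and neural tissue in the fit over both sections and the smallest difference between the sections in it, although in section 2 alone Thbs1 had a larger one. It stood at 197 and 212 CPM in tumor, 123 and 179 CPM on the tumor side of the edge, 35.6 and 66.6 CPM on the neural side, and 4.67 and 7.00 CPM in neural tissue (118 and 235 UMIs). No neighbouring regions overlapped. Tumor against neural tissue gave a log2 fold change of 5.17 ± 0.26 (edgeR adjusted p = 3.8e-04), and both sections were close to it, at 5.26 and 4.82.

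Ltbp2, a relative that is found in the same matrix but does not bind latent TGF-beta covalently, was higher in section 1 in every region but neural tissue. Its levels were 129 and 42.9 CPM in tumor, 65.8 and 21.6 CPM on the tumor side of the edge, 28.6 and 9.31 CPM on the neural side, and 8.51 and 10.0 CPM in neural tissue. On the neural side of the edge, section 1 was above and section 2 (33 UMIs) within the range of neural tissue. Tumor exceeded neural tissue by a log2 fold change of 2.87 ± 0.52 (edgeR adjusted p = 0.00906).

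Thbs1, the secreted glycoprotein thrombospondin 1, differed most between the sections in tumor and in neural tissue. Section 2 held 6281 CPM in tumor, 3379.5 CPM on the tumor side of the edge, 1310.5 CPM on the neural side and 123 CPM in neural tissue. Section 1 held 218 CPM in tumor and more at the edge, with 689.6 CPM on its tumor side and 611 CPM on its neural side, and 64.9 CPM in neural tissue. The order of tumor and edge was thus reversed between the sections, whereas neural tissue was lowest in both. The log2 fold change between tumor and neural tissue was 1.74 in section 1 and 5.66 in section 2, and 4.12 ± 1.08 in the fit over both (edgeR adjusted p = 0.0311). That call was lost when the section was left out as a block (edgeR adjusted p = 0.0806), when neural tissue was limited to spots within 15 spacings of the tumor (edgeR adjusted p = 0.076) and when the threshold on the neural share was divided by 2 (edgeR adjusted p = 0.0836). Platelets are known to carry thrombospondin 1, and the 7 platelet genes summed to 61.3 to 168 CPM over the tumor and edge libraries and to 37.1 and 26.1 CPM in neural tissue. Most of the sum in tumor and edge came from 1 gene, Pf4. It stood at 47.2 to 150 CPM there and at 18.3 and 13.2 CPM in neural tissue, so the difference in the sum largely follows that gene. The part of platelets was not tested.

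Tgfbi, the secreted matrix protein named as a TGF-beta induced gene, stood at 611 and 117 CPM in tumor, 611 and 145 CPM on the tumor side of the edge, 221 and 153 CPM on the neural side, and 24.5 and 22.5 CPM in neural tissue. Tumor and the tumor side of the edge were level in section 1, whereas section 2 rose from tumor to the neural side of the edge. All edge and tumor levels lay above both neural levels. Tumor against neural tissue gave a log2 fold change of 3.50 ± 0.66 (edgeR adjusted p = 0.0101), at 4.61 in section 1 and 2.35 in section 2.

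The edge compared with neural tissue took in the tumor side, so its level holds that of tumor tissue as well. Tumor markers also reached its neural side (CPM without TMM scaling). There the epithelial list of section 2 stood at 4709 CPM and the fibroblast list of section 1 at 14033 CPM, against 393 and 801 CPM in neural tissue. The part of tumor material on the neural side was not tested. The mean of both sides of the edge was higher than neural tissue for 7 of 10 members and lower for none (edgeR, adjusted p below 0.05), against 27.7% of all genes called, 13.1% as higher and 14.6% as lower. The median log2 fold change was 1.65 over the members and -0.07 over all genes. Ltbp1 led with 3.90 ± 0.24 (edgeR adjusted p = 0.00131), followed by Thbs1 with 3.63 ± 0.95 (edgeR adjusted p = 0.0381) and Tgfbi with 3.25 ± 0.61 (edgeR adjusted p = 0.0128). Tgfb1, at 2.33 ± 0.23 (edgeR adjusted p = 0.0019), had log2 fold changes of similar size at the edge and in tumor. Tgfbr2, Tgfb3 and Tgfbr1 were higher at the edge by 1.79 ± 0.45, 1.52 ± 0.23 and 1.41 ± 0.27 (edgeR adjusted p = 0.0342, 0.00638 and 0.0127). Ltbp2 (1.30 ± 0.46), Tgfb2 (1.08 ± 0.76) and Tgfbr3 (-0.37 ± 0.64) did not pass the test, with edgeR adjusted p-values of 0.091, 0.352 and 0.716. All 4 edge levels lay above both neural levels for 8 members and for 19.3% of all genes. With neural tissue limited to spots within 15 spacings of the tumor, 4 of the 10 members were called, and the calls of Thbs1, Tgfbr1 and Tgfbr2 were lost. Fewer genes were called in all, with 1605 higher and 2008 lower of 18502 tested, against 2514 and 2783 of 19118. Comparisons of tumor and of edge with neural tissue share the neural libraries, so that they are not independent of each other.

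**Figure D3:**
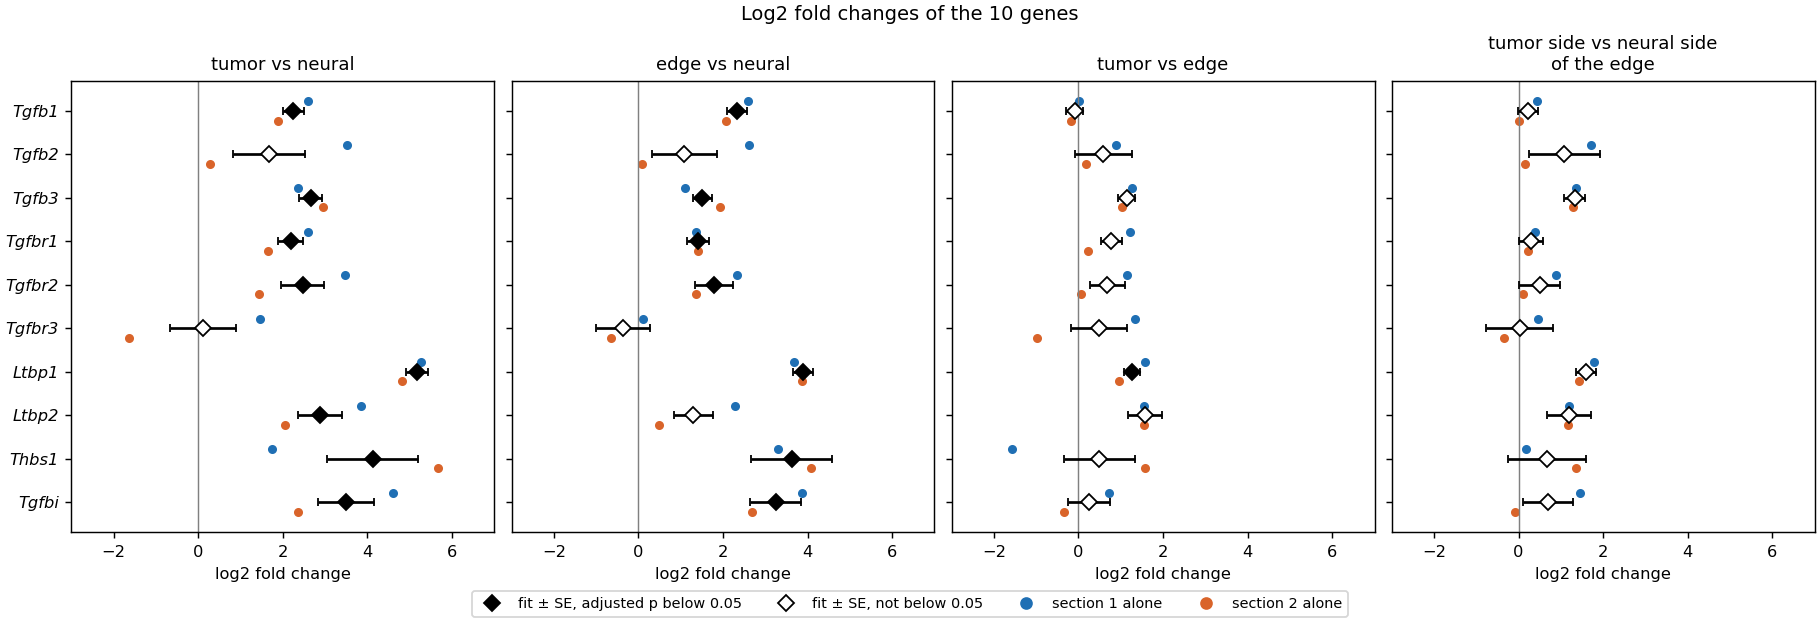
Log2 fold changes of the 10 members in 4 comparisons, with the edgeR fit over both sections (diamond, bar for ± 1 SE, filled where the adjusted p was below 0.05) and each section alone (blue and orange points). Ltbp1 was the 1 member with a filled diamond between tumor and edge, and the sections lay on opposite sides of 0 there for Thbs1, Tgfbr3, Tgfbi and, close to 0, Tgfb1.

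Between tumor and edge, 1 of 10 members was called, Ltbp1, which was higher in tumor by a log2 fold change of 1.27 ± 0.19 (edgeR adjusted p = 0.0283). Of all genes, 2.74% were called, 0.136% as higher in tumor and 2.60% as lower. Both tumor levels lay above both levels of the tumor side of the edge for 3 members, Tgfb3, Tgfbr1 and Ltbp1, and for 7.49% of all genes. Leaving out the section as a block (edgeR adjusted p = 0.156) and dividing the threshold on the neural share by 2 (edgeR adjusted p = 0.396) each ended the call of Ltbp1. DESeq2 called 4 members, adding Tgfb3, Tgfbr1 and Ltbp2, and called 597 genes as higher and 1233 as lower of 13929 tested. Ltbp2 was higher in tumor by 1.57 ± 0.41 (edgeR adjusted p = 0.14), at 1.55 in section 1 and 1.56 in section 2. Thbs1 differed by -1.58 in section 1 and 1.58 in section 2. Tgfbr1 and Tgfbr2 were higher in tumor by 1.23 and 1.14 in section 1 and by 0.23 and 0.07 in section 2.

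Between the sides of the edge no member was called, and none of the 19118 genes was called (0% in either direction) with edgeR at an adjusted p below 0.05, while 2402 genes had an unadjusted p below 0.05. DESeq2 called 744 of 13187 genes and 2 members, Ltbp1 and Tgfb3. Both tumor-side levels lay above both neural-side levels for 3 members, Tgfb3, Tgfbr2 and Ltbp1, and for 11.7% of all genes. Ltbp1 and Tgfb3 had the largest differences of the members in the edgeR fit, with Ltbp1 higher on the tumor side by 1.59 ± 0.23 (unadjusted p = 4.4e-04, adjusted p = 0.146) and Tgfb3 by 1.33 ± 0.25 (unadjusted p = 0.002, adjusted p = 0.165). Tgfb1 differed by 0.23 ± 0.24 (adjusted p = 0.706), with 0.44 in section 1 and 0.01 in section 2.

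**Figure D4:**
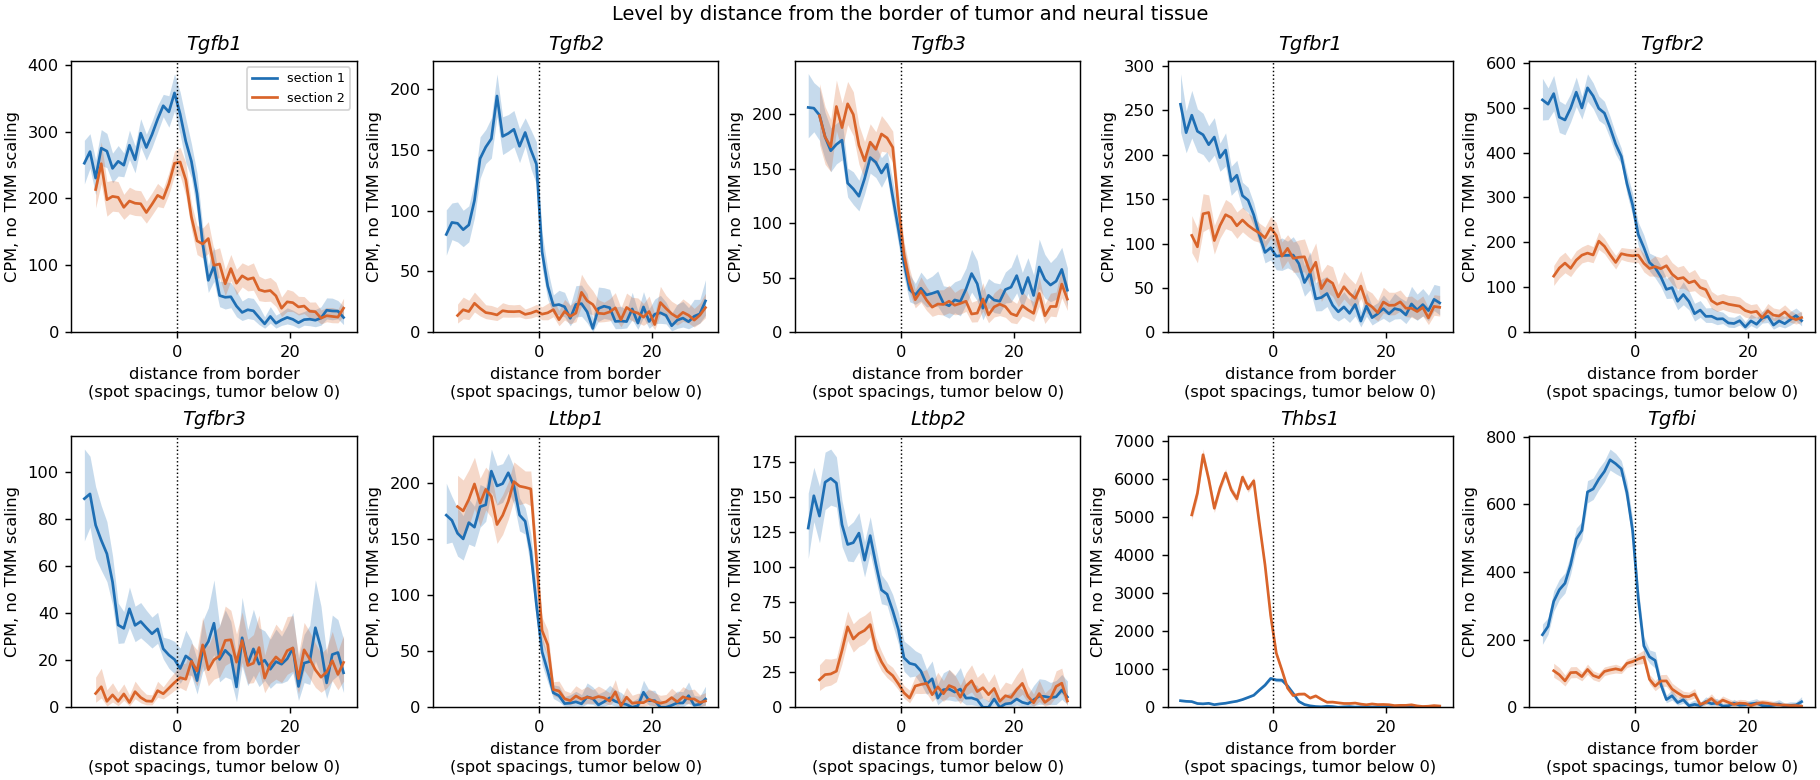
CPM without TMM scaling by distance from the border of tumor and neural tissue, in bands of 1 spot spacing (tumor below 0, neural tissue above 0) and with exact 95% Poisson intervals, for section 1 (blue) and section 2 (orange). Ltbp1 and Tgfb3 fell within a few bands of the border, whereas Tgfb1, Tgfbr1, Tgfbr2 and Tgfbi declined further into neural tissue.

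Bands of 1 spacing with at least 20 spots showed where inside these regions the members peaked. Tgfb1 was highest at the border itself, in the first tumor band of section 1 (358 CPM without TMM scaling) and in the first neural band of section 2 (255 CPM). In the deepest tumor bands it stood at 253 and 213 CPM. The macrophage list peaked beside it, in the first neural band of section 1 (21175 CPM) and the second of section 2 (21542 CPM).

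Thbs1 in section 1 was also highest in the first tumor band, at 760.7 CPM, and stood at 174 CPM in the deepest. In section 2 it peaked 13 bands deep at 6651 CPM (27 spots) and stood at 2416 CPM in the first tumor band and 1427 CPM in the first neural band. Tgfbi in section 1 was highest 5 bands inside the tumor, at 732 CPM against 215 CPM in the deepest band, and in section 2 it was highest in the second neural band, at 149 CPM. Both genes thus had a border maximum in 1 section and an interior maximum in the other, in opposite sections.

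The receptor genes rose inward in section 1. Tgfbr1 increased from 95.2 CPM in the first tumor band to 257 CPM in the deepest, and Tgfbr3 from 20.4 to 88.8 CPM, whereas in section 2 Tgfbr1 stood at 118 and 109 CPM in these bands. Tgfb2 in section 1 had its maximum 8 bands inside, at 194 CPM, and fell to 80.4 CPM in the deepest band.

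Some members stayed above the level of distant neural tissue (bands 15 to 30) over more bands than others. Ltbp1 and Tgfb3 were above it, by non-overlapping 95% Poisson intervals, in the first 3 and 1 neural bands of section 1 and the first 4 and 2 of section 2. For Tgfb1 these bands numbered 10 and 17, for Tgfbr2 10 and 14, for Tgfbi 7 and 11, for Tgfbr1 7 and 11, and for Thbs1 7 and 16. In the first neural band Thbs1 stood at 719 CPM against 9.92 CPM in distant neural tissue in section 1, and at 1427 against 58.1 CPM in section 2. These intervals cover counting error alone, and the bands of a section share 1 animal. The macrophage list also declined, from 21175 to 8397 CPM between neural bands 1 and 5 of section 1 and from 21428 to 7885 CPM in section 2. How many bands it stayed above distant neural tissue was not measured. Neither its part nor that of tumor material was tested.

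The tumor of section 2 consisted of a mass of 797 spots and a separate one of 77 spots, edge included. Thbs1 stood at 5104 CPM in the large and 5124 CPM in the small mass and Ltbp1 at 181 and 199 CPM, with overlapping 95% Poisson intervals. Tgfb3 was higher in the small mass (219 against 170 CPM), with intervals that did not overlap. Tgfb1 (181 against 208 CPM), Tgfbr2 (131 against 169.9 CPM), Tgfbi (90.3 against 109.6 CPM) and Ltbp2 (10.7 against 36.5 CPM) were lower there, also without overlap. Leaving out the small mass changed no call of a member.

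Between the sections, the tumor levels of Ltbp1, Tgfb3, Tgfb1 and Tgfbr1 differed by 1.07-fold, 1.18-fold, 1.36-fold and 1.48-fold, against a median of 1.41-fold over all genes. Thbs1 differed by 28.9-fold, higher in section 2, and 0.837% of genes differed by as much. Tgfbr3, Tgfb2 and Tgfbi were higher in section 1 by 8.75-fold, 7.99-fold and 5.23-fold, sizes reached by 3.38%, 3.52% and 5.63% of genes. In neural tissue the members differed between the sections by 1.05-fold to 1.90-fold, the widest being Thbs1, against a median of 1.21-fold. With 1 section of each kind, these differences have no replicate check and were not tested.

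Over square tiles of 6 spot spacings (89 in section 1 and 108 in section 2), log2(CPM + 1) of the members was compared as a description, since tiles of a section share a library and cross the tumor border. Of the 45 pairs of members, 12 had a Pearson correlation above 0.6 in both sections, led by Tgfb1 with Tgfbi (0.82 and 0.84) and Tgfbr1 with Tgfbr2 (0.82 and 0.83). Within tumor and the tumor side of the edge (22 and 26 tiles), 2 pairs were above 0.6 in both, Tgfbr1 with Tgfbr2 (0.71 and 0.63) and Tgfbr2 with Ltbp2 (0.67 and 0.74, against 0.76 and 0.29 over all spots), and 20 pairs had opposite signs. Thbs1 and Tgfb1 correlated at 0.84 in section 1 and -0.72 in section 2.

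In the same tumor tiles, the lists most strongly correlated with Thbs1 were the oligodendrocyte list (0.86) and, negatively, the B and plasma cell list (-0.86) in section 1. In section 2 they were the epithelial list (0.85) and, negatively, the macrophage list (-0.87), which in section 1 had a correlation of 0.68. These tiles take in the tumor side of the edge. There the oligodendrocyte list of section 1 stood at 1899 CPM against 310 CPM in tumor, and its B and plasma cell list at 216 against 984 CPM. Closeness to the border was not separated from these correlations. Ltbp1 of section 2 also correlated with the epithelial list (0.81), and Tgfb1 of section 2 with the endothelial (0.80) and macrophage (0.78) lists and negatively with the epithelial list (-0.86). In neural tiles (69 and 82), Tgfbr2 correlated with the microglia list (0.72 and 0.84) and about as strongly with the macrophage list (0.74 and 0.81). Microglia genes themselves were higher on the neural side of the edge (1931 and 1487 CPM) than in neural tissue (825 and 924 CPM). Their tumor-side sums were 1338 and 785 CPM, so section 2 showed no such rise there. In tumor they summed to 1195 and 352 CPM.

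The genes with the patterns most like each member were those with the highest lower correlation of the 2 sections, over all tiles and the 11535 genes with at least 500 UMIs in each section. For Tgfb1 they were Hist1h2bb (0.88 and 0.88), Msn (0.87 and 0.94) and Emp3 (0.87 and 0.87), for Tgfbi Emp3, Actb and S100a6, and for Thbs1 Emp1, Lgals3 and S100a11. Tgfbr2 was most like Tspo, Igfbp7 and Tln1, and Tgfbr1 like Tapbp, Tpt1 and Tgfbr2. Ltbp1 was most like Dynap, Emp1 and Arf4, Ltbp2 like Bmp1, Btg1 and Lpp, and Tgfb3 like Ubap2l, Tpm1 and Myo1c. For Tgfb2 (Antxr1, L3mbtl3 and Gpr108) and Tgfbr3 (Syt12 and Ift57) the lower correlation was 0.519 at most. With tiles of 4 or 8 spacings, at most 2 of the 3 most similar genes were shared for any member, so the ranking depends on the tile size.

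Other genes of the pathway were taken from lists drawn up by role, and some genes, such as Fn1 and Skil, are on more than 1 list. Of 29 tested genes of latency and activation, 16 were higher in tumor than in neural tissue and 1 lower (edgeR, adjusted p below 0.05), against 17.6% and 18.1% of all genes. At the edge 14 were higher and 1 lower, against 13.1% and 14.6% of all genes. The median log2 fold changes of the list were 1.98 and 1.53. Fn1, the fibronectin on which latent complexes assemble, stood at 7484 and 3014 CPM in tumor and 194 and 246 CPM in neural tissue. Mmp14, a membrane protease that can release the ligand, rose by 4.41 ± 0.66 (edgeR adjusted p = 0.00474), and the fibrillin gene Fbn1 by 3.50 ± 1.04 (edgeR adjusted p = 0.0456), at 5.56 in section 1 and 1.29 in section 2. Plau, the urokinase gene, was higher at the edge by 3.62 ± 0.22 (edgeR adjusted p = 0.00131). The 1 lower gene in both comparisons was Itgb8, an integrin subunit that activates latent TGF-beta, which fell by 0.996 ± 0.29 in tumor and by 0.87 ± 0.24 at the edge (edgeR adjusted p = 0.0426 and 0.0454). Its log2 fold change in tumor was -1.57 in section 1 and -0.38 in section 2.

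Of 27 genes for SMADs and their regulators, 13 were higher in tumor than in neural tissue and 2 lower, against 17.6% and 18.1% of all genes. At the edge 9 were higher and 2 lower, against 13.1% and 14.6% of all genes. The medians of the list were 0.62 and 0.48. Those named were inhibitors and corepressors of the pathway, Tgif1 (3.57 ± 0.33; edgeR adjusted p = 9.6e-04), Pmepa1 (2.89 ± 0.26; edgeR adjusted p = 8.4e-04) and the ubiquitin ligase gene Smurf1 (1.87 ± 0.39; edgeR adjusted p = 0.0143). Skil, a corepressor, rose at the edge by 1.29 ± 0.22 (edgeR adjusted p = 0.00907). Smad9, a SMAD of the BMP branch, fell by 2.86 ± 0.28 in tumor (edgeR adjusted p = 0.00114). Zfyve9, which brings SMADs to the receptor, fell by 1.66 ± 0.20 (edgeR adjusted p = 0.00217).

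**Figure D5:**
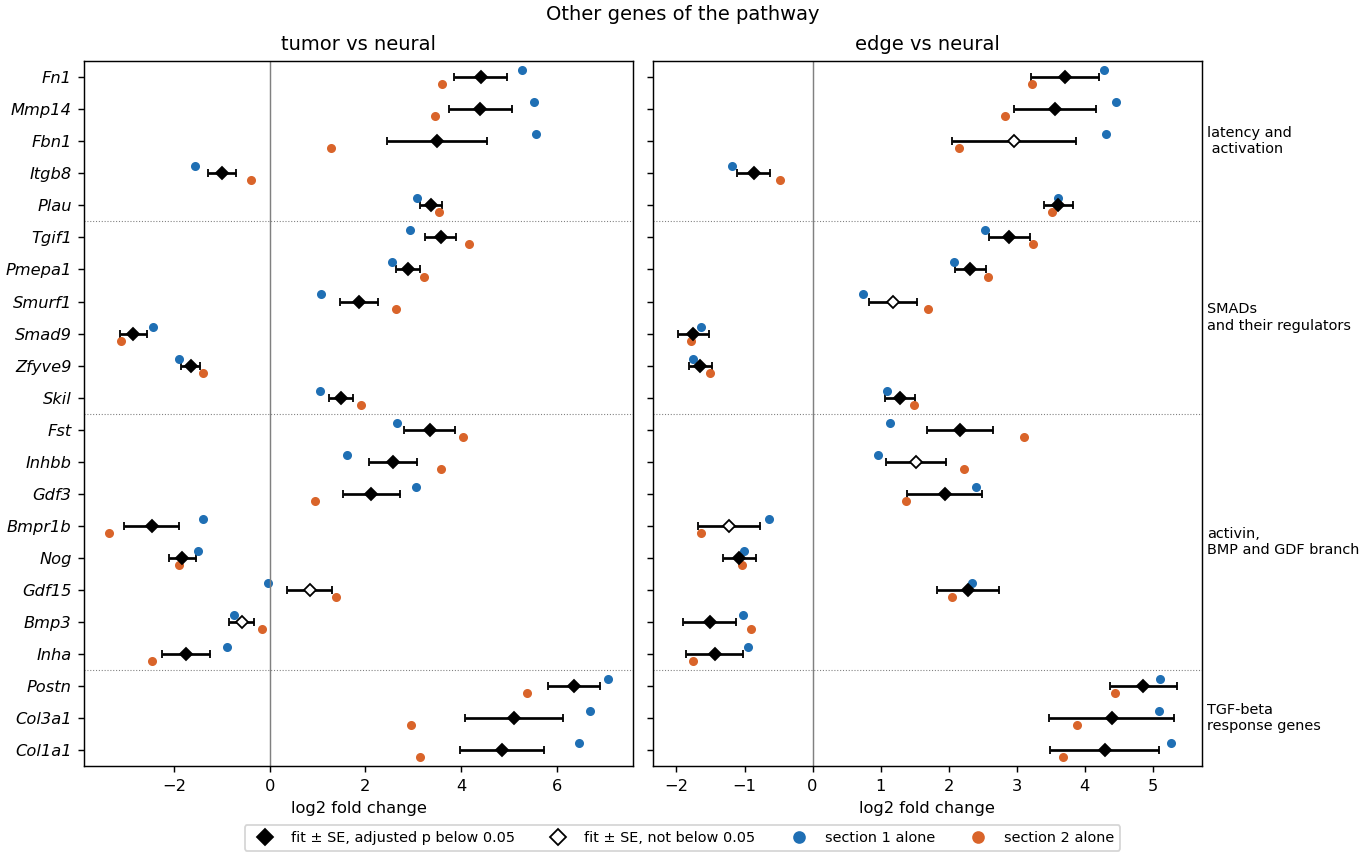
Log2 fold changes of other pathway genes for tumor against neural tissue (left) and edge against neural tissue (right), with the edgeR fit (diamond, bar for ± 1 SE, filled where the adjusted p was below 0.05) and each section alone (blue and orange points). Postn, Col3a1 and Col1a1 had the highest values in tumor, and Smad9 and Bmpr1b the lowest.

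Calls in the activin, BMP and GDF branch went both ways, with more genes higher than lower. Of its 41 tested genes, 12 were higher in tumor than in neural tissue and 6 lower, against 17.6% and 18.1% of all genes. The median was -0.13, the same as that of all genes to this precision. At the edge 10 were higher and 5 lower, against 13.1% and 14.6% of all genes. The median there was -0.19, against -0.07 over all genes. Fst, the activin antagonist follistatin, rose in tumor by 3.34 ± 0.52, Inhbb, an activin subunit, by 2.58 ± 0.50, and Gdf3 by 2.12 ± 0.60 (edgeR adjusted p = 0.00546, 0.0111 and 0.0392). The receptor gene Bmpr1b fell by 2.47 ± 0.57, and the BMP antagonist gene Nog by 1.83 ± 0.28 (edgeR adjusted p = 0.0205 and 0.00486). Gdf15, a stress-induced ligand, was highest on the neural side of the edge, at 58.4 and 36.1 CPM against 8.04 and 5.84 CPM in neural tissue, and was higher at the edge by 2.29 ± 0.45 (edgeR adjusted p = 0.0146). Bmp3 and Inha were lower at the edge, by -1.51 ± 0.39 and -1.44 ± 0.42 (edgeR adjusted p = 0.0331 and 0.0496), the former from levels of 0.282 to 2.34 CPM.

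Of 40 genes that TGF-beta is known to induce or repress in some cell types, 18 were higher in tumor than in neural tissue and 24 at the edge, and none was lower, with medians of 1.71 and 1.89. Several of them are also raised by other signals. Of all genes tested, 17.6% were higher in tumor and 13.1% at the edge, and 18.1% and 14.6% were lower. Postn, a matrix protein, stood at 1405 and 237 CPM in tumor and 9.90 and 5.18 CPM in neural tissue, a log2 fold change of 6.37 ± 0.55 (edgeR adjusted p = 8.5e-04). The fibrillar collagen genes Col3a1 and Col1a1 rose by 5.11 ± 1.02 and 4.86 ± 0.88 (edgeR adjusted p = 0.0124 and 0.00893), and both are also on the fibroblast list, which was high in the tumor of section 1. Between tumor and edge, and between the sides of the edge, no gene of the 4 lists was called. Few of all genes were called there either, at 2.74% and 0%, so the lists did not stand apart in this.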

How the data were processed

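The deposited files hold UMI counts per gene and spot, which the authors made with Space Ranger 2.1.1 on mm10, per the submitters' processing notes, with no normalization. Spots under tissue with at least 500 UMIs were kept (3315 of 3406 in section 1 and 3999 of 4017 in section 2, with 63986887 and 71878333 UMIs). Tumor and neural tissue were split within each section by Otsu's threshold on the share of UMIs from 31 neural genes, averaged over neighbouring spots (0.647% and 0.616%). Low-neural groups were kept as tumor with at least 50 spots and a median of at least 2 times the UMIs of high-neural spots. Counts were summed by section and region. edgeR 4.0.16 (quasi-likelihood test, TMM, Benjamini-Hochberg; limma 3.58.1, R 4.3.3) was fitted on all 8 summed libraries with the section as a block, leaving 3 residual degrees of freedom, and DESeq2 1.42.0 was an alternative. Regions of a section come from the same animal, and their deviations correlated at 0.362 to 0.838 in the 6 pairs of regions. Spots are not replicates, the n of every test is 2 sections, and the study describes them as biological replicates. Poisson intervals cover counting error only. The 3096 spot barcodes shared by the sections are fixed array positions. The scripts were tested on simulated data. The members and gene lists were chosen with earlier results of these data known. All 10 members were named, together with up to 3 genes per direction of each of the 4 pathway lists with the largest fold change among those called in the same direction in both sections, and the 3 genes most like each member over tiles with at least 10 spots. Some genes that this rule names are not reported here.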

Additional observations from a re-analysis of the deposited data

Results flagged for a closer look

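A group of 39 spots in section 2 (471988 UMIs) was low in neural genes but was left out of every comparison, and the spots outside the regions were rich in choroid plexus genes, which summed to 126675 CPM there and 690.1 CPM in neural tissue. Tgfb2 stood at 400.4 CPM in this group (189 UMIs; 95% Poisson interval of 345 to 462 CPM, counting error only), above its level in every region of the section. Tgfbr3 stood there at 222 CPM (105 UMIs; 182 to 269 CPM), also above every region of the section. Both values are without TMM scaling, come from 1 section and were not tested.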

How the results depend on the processing

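Of the 8 counts of calls, the count of members higher in tumor than in neural tissue (8) stayed within 1.5 times under every alternative tried. Without the section as a block the same number of members or fewer was called and the dispersion rose from 0.0818 to 0.174. All genes called without this replicate block numbered 3993 between tumor and neural tissue (6840 with it), 338 between tumor and edge (524 with it) and 3196 between edge and neural tissue (5297 with it), and it called 0 members between tumor and edge. Between tumor and edge, 1 member was called in the main setting, 4 with DESeq2 and with the neural threshold multiplied by 2, 2 with RLE size factors, with the edge within 1 or 3 spacings and with neural spots within 15 spacings, and 0 with the threshold divided by 2. All genes called there numbered 1830 with DESeq2, 810 with library size as the only scaling, 0 with the threshold divided by 2 and 3122 with it multiplied by 2. Neural spots within 15 spacings gave 4 members between edge and neural tissue, with 1605 higher and 2008 lower of 18502 genes. Between the sides of the edge, DESeq2 called 2 members and 744 of 13187 genes, and the edge within 3 spacings 2 members and 460 of 19147 genes.

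Some values without a test, for 1 section alone or for raw UMIs per spot, turned sign. Under the alternatives with a test, uncalled log2 fold changes turned sign in these cases. Tgfbr3 between tumor and neural tissue was -0.23 with library size, -0.20 with the threshold divided by 2 and -0.01 (-0.0076) with neural spots within 15 spacings. Between tumor and edge, Tgfb1 was 0.0035 with the edge within 3 spacings and 0.35 with the threshold multiplied by 2, and with the threshold divided by 2 Thbs1 was -0.019 and Tgfbi -0.13. Tgfbr3 between the sides of the edge was -0.14 with library size, -0.15 with the threshold divided by 2 and -0.019 with at least 1000 UMIs per spot. Between edge and neural tissue, multiplying the threshold by 2 ended the calls of Tgfb3 (edgeR adjusted p = 0.403) and Tgfbr2 (edgeR adjusted p = 0.0519), and the calls of Thbs1 were lost without the replicate block (edgeR adjusted p = 0.145) and with the threshold divided by 2 (edgeR adjusted p = 0.0628). Library size as the only scaling moved the median difference (log2) over all genes from -0.13 to -0.45 between tumor and neural tissue and the share of higher calls from 49.3% to 29.2%. Between edge and neural tissue that share moved from 47.5% to 35.8%, and between tumor and edge from 4.96% to 32.6% with DESeq2 and 46.9% with the threshold multiplied by 2. Leaving out 1 section leaves values with no test. Raw UMIs per spot, also with no test, moved 28 log2 fold changes of members by more than the SD of the section values, and 12 stayed within it. Leaving out spots with over 1% choroid plexus UMIs, an alternative chosen after seeing the data, changed no call of a member. The cause of these changes was not tested.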
